A study of Mus musculus with 6 samples.

Results

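The canonical histone genes were examined in orthotopic HCA-1 liver tumors of the mouse. These are the genes whose symbols begin with Hist1h, Hist2h, Hist3h or Hist4h in the deposited gene table, and 62 of them had at least 1 count in some library, out of 33495 genes with a count. They comprised 6 genes for the linker histone H1, 16 for H2A, 17 for H2B, 10 for H3 and 13 for H4. A further matching symbol, Hist2h2ab, was at 0 in all 6 libraries and was left out, while 10 of the 62 were inside the rule by 1 count. In the mouse annotation GENCODE M21 (build GRCm38), 54 of the genes lay on chromosome 13, 4 on chromosome 3, 3 on chromosome 11 and 1 on chromosome 6.

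HCA-1 is a murine hepatocellular carcinoma cell line, and its cells had been injected below the liver capsule of male C3H mice (C3H/HeNCrNarl in the study's methods) aged 6 to 8 weeks. The 3 control tumors (libraries 5, 6 and 7) were untreated, and the 3 treated tumors (libraries 1, 2 and 5) came from mice that received GOx-DOX-LGP intravenously, a nanogel carrying the glucose-consuming enzyme glucose oxidase and the DNA-damaging drug doxorubicin. The labels give dosing days 18, 19 and 20 and an analysis on day 17 after 3 h of circulation, while the study's methods for PCR on such tumors place the harvest on the day after the last dose, so the interval between dose and harvest of the sequenced tumors is not certain. All tumors were from a single cell line in host liver, with the host's blood, immune and stromal cells present, and the labels do not say that each library was a separate animal, so p-values measure only the spread between these libraries. In such bulk tissue, fewer cells of a type and less RNA per cell cannot be told apart.

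Histones package DNA: H2A, H2B, H3 and H4 form the nucleosome core and H1 binds the linker DNA between cores. Canonical histone genes are transcribed mainly during S phase, when new DNA needs new histones, and most of their mRNAs end in a conserved stem-loop in place of a poly(A) tail. The stem-loop binding protein Slbp and the U7 small nuclear RNP direct the cut just past it. Some canonical histone genes also yield longer, polyadenylated mRNAs, and replacement histones such as H1f0 and H3f3b are polyadenylated throughout. The libraries here were made from tumor RNA with a kit that captures mRNA by its poly(A) tail, and what that capture did to the histone counts was not tested.

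The stem-loop letters were read from the annotated transcripts to show which members carried them. The search was for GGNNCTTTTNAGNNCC, 16 bases on the transcript strand, where N is any base. It was found in 41 of the 62 histone genes, whereas 89 of the 55450 genes in the annotation (0.161%) held it in all. The form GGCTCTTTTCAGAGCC was the commonest, with 23 members, followed by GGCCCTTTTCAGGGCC with 7 and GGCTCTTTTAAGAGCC with 6. In all, 6 forms were found. The 6 members below were chosen from those described further on to show the commonest form, a rarer form and the range of lengths past the stem-loop. Each is printed 5′ to 3′ over 30 bases with the stem-loop in capitals.
Hist1h1c: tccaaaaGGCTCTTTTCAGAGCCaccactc
Hist1h1d: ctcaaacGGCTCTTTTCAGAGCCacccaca
Hist3h2a: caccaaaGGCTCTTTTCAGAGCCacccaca
Hist1h2ao: aaaaaaaGGCTCTTTTCAGAGCCatccaca
Hist1h4i: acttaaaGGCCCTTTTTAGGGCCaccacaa
Hist2h4: ccctaacGGCCCTTTTTAGGGCCaaccaca
The H1 and H2A genes shown shared the same 16 letters, while both H4 genes shared another form, which only 2 members held. What differed was how far the annotated transcript ran on. It stopped 31 bases after the stem-loop in Hist1h2ao, but continued for 330 bases in Hist1h4i, 840 in Hist1h1c, 1257 in Hist2h4, 1643 in Hist3h2a and 4884 in Hist1h1d. The annotated transcripts of Hist1h2bc and Hist2h2be did not hold these letters.

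Promoters were set beside each other because groups of members had similar profiles over the libraries. The letters CCAAT, the TATA box letters TATAAA and the octamer ATTTGCAT were searched, each on its own whether or not matches overlapped, on both strands of the 250 bases before the RefSeq start, in the 53 members that matched the RefSeq promoter table (GRCm38.p6). CCAAT occurred in 43 of 53 (81.1%, against 37.5% of 27025 genes), TATAAA in 26 (49.1%, against 14.3%) and the octamer in 11 (20.8%, against 1.81%). CCAAT was present in all 6 H1, all 13 H2A and all 14 H2B promoters searched, but in 3 of 12 H4 promoters. The octamer was found in 6 H2A and 5 H2B promoters. Some neighbouring H2A and H2B genes have overlapping windows, so the same letters can be counted in both families. The last 120 bases before the start are shown for 4 members of contrasting profile, with matches on either strand in capitals.
Hist1h1c, chr13:23738687-23738806, plus strand: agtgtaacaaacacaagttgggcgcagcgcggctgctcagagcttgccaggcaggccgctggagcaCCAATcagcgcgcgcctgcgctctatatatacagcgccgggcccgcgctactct
Hist1h1d, chr13:23554912-23555031, plus strand: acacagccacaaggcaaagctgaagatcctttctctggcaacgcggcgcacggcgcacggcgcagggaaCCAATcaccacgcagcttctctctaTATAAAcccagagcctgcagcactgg
Hist1h2ao, chr13:21810247-21810366, plus strand: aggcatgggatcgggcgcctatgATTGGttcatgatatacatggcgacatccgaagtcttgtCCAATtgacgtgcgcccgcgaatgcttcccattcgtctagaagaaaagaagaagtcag
Hist1h4i, chr13:22041363-22041482, minus strand: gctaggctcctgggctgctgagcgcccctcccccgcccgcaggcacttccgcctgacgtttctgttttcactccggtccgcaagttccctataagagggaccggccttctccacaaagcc
The pair of H1 genes each had a CCAAT close to the start, and Hist1h1d also had TATAAA. Hist1h2ao had CCAAT letters on each strand. No searched letters appeared in the Hist1h4i stretch shown, though TATAAA occurred farther upstream in its 250 bases searched. A match is a description of letters and not evidence of binding.

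The 6 libraries held 15529940 to 18401178 counts each. Control 5 stood apart from the other controls: across genes, which are not independent replicates, its log2(count + 1) values correlated with those of the treated libraries at r = 0.965 to 0.974, but with those of controls 6 and 7 at r = 0.698 and 0.617. The summed level of the 11 hepatocyte markers found, such as Alb, Ttr and Apoa1, was 641 CPM in control 5, 133000 in control 6 and 217000 in control 7, against 1430 to 3530 CPM in the treated libraries. CPM here is the count in 1000000 counts of the library total after trimmed-mean (TMM) scaling. Since every comparison rests on which controls enter it, values against controls 6 and 7 and against control 5 are also given for the genes and sums with the largest differences.

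Canonical histone counts were few and lay mostly in a pair of genes. All 62 members together had 8074 counts over the 6 libraries. Hist1h1c alone held 41.3% of them, and Hist1h1c with Hist1h2bc held 68.6%. The median member had 10 counts in all 6 libraries together, and 32 members had at most 10. Members with a count numbered 48 in control 5, 30 in control 6 and 29 in control 7, and 44, 45 and 47 in the treated libraries 1, 2 and 5. A count of 0 in a library still allowed up to 3 counts, or 0.163 to 0.193 CPM of its unscaled total. Thus 27 members at 0 in both control 6 and control 7 were not detectable there at this depth.

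**Figure D1:**
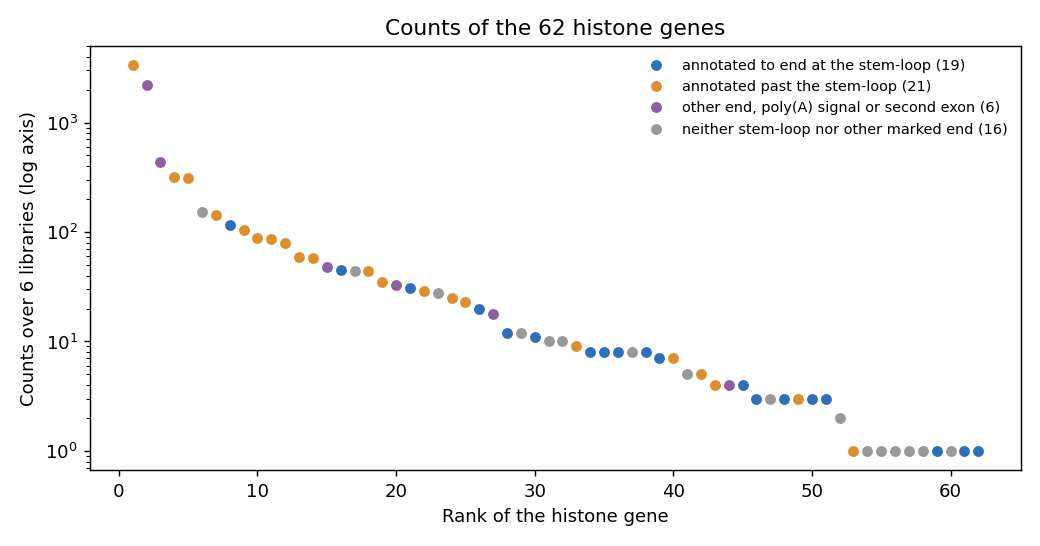
Counts of each of the 62 histone genes summed over 6 libraries (vertical, log axis) against rank (horizontal), coloured by how the annotated transcript ends. The first gene, Hist1h1c, had 3338 counts and the second, Hist1h2bc, 2200, while 10 genes had 1 count each.

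The members with the most counts were those annotated to run past the stem-loop or to end elsewhere. A transcript was called extended when it continued for more than 100 bases after the stem-loop. The 21 extended members held 59% of all histone counts. The 6 members with another end, marked by the poly(A) signal AATAAA in the last 50 bases or by a second exon, held 33.9%, mostly through Hist1h2bc. The 19 members annotated to stop at the stem-loop held 3.63%, and the 16 with neither the stem-loop letters nor such another end held 3.47%. All 21 members without the letters, Hist1h2bc and Hist2h2be among them, held 36.9%. Per kilobase of annotated exon, the median member mean was 0.302 CPM for extended members and 0.114 CPM for those that stop at the stem-loop, with wide ranges of 0.0155 to 22.3 and 0.0138 to 2.05. On the same scale, the replacement linker histone H1f0 averaged 163 CPM and the replacement histone gene H3f3b 320 CPM, both named after their values were seen, against 22.3 CPM for Hist1h1c and 24.6 CPM for Hist1h2bc. Of the 11 replication-independent histones listed, H1f0, H3f3b and H2afz (40.0 CPM) lay above both leading canonical genes on this scale, and the other 8 ranged from 0.629 (H1fx) to 22.9 CPM (H2afv).

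The question of the study's design, whether tumors given GOx-DOX-LGP differed from untreated tumors, was put to the histone genes with the edgeR quasi-likelihood test on all genes. No histone gene passed. Of the 62 members, 13 had enough counts to be tested and 49 did not. At a Benjamini-Hochberg adjusted p under 0.05, 0 of the 13 were called, and the background was 0% of 15374 genes. At an unadjusted p under 0.05, 1 of 13 was called (Hist1h2bc, lower), beside a background of 17.5%. The adjusted p-values of the members ran from 0.247 to 0.992. DESeq2 called 1 of the 15 members to which it gave an adjusted p, again Hist1h2bc, beside a background of 10.5%.

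The 13 tested members divided in direction. The treated mean lay above the control mean on the fitted log2 scale in 6 and below it in 7, with fold changes from -2.19 to 1.28. Their median log2 fold change was -0.19, and that of all 15374 genes was 0.02. In none of the 13 did the 3 treated libraries lie wholly above or below the 3 controls, whereas 17.2% of all tested genes did not overlap. The overlap came from control 5 in the genes with the largest changes.

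**Figure D2:**
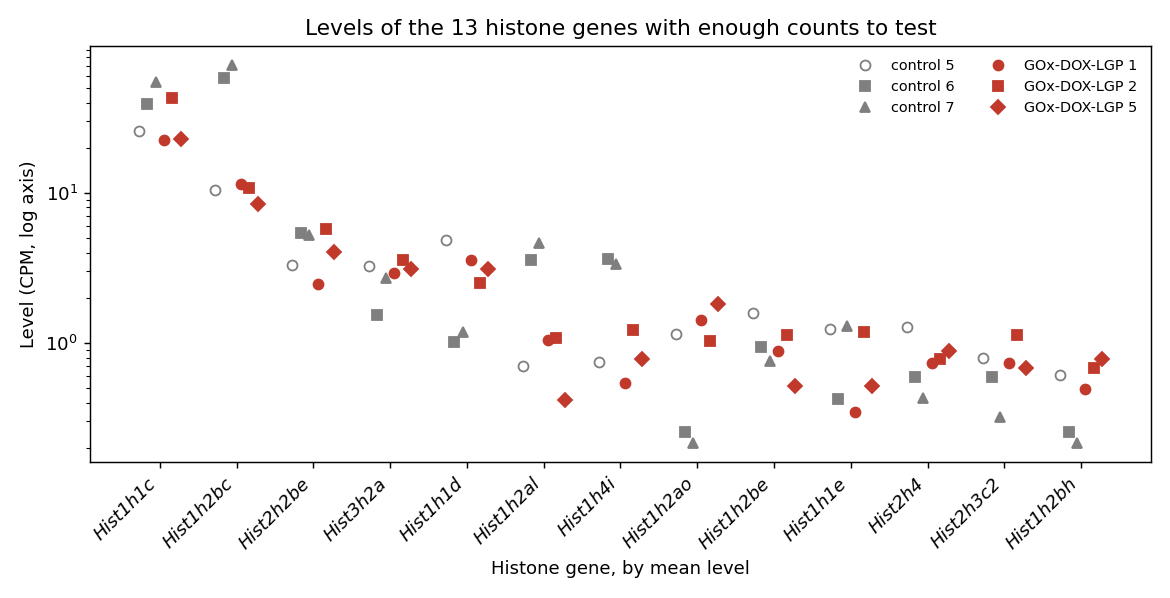
Level of the 13 tested histone genes in each library (CPM, log axis), with open circles for control 5, grey symbols for controls 6 and 7 and red symbols for the treated libraries. In Hist1h2bc, Hist1h2al and Hist1h4i, control 5 lies among or next to the treated libraries and below controls 6 and 7, and in Hist1h1d and Hist1h2ao it lies with the treated libraries above them.

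Linker histones were led by Hist1h1c, a somatic H1 subtype gene (ENSMUSG00000036181, chromosome 13, 23738808 to 23740367, single exon, annotated 840 bases past the stem-loop). Its level was 25.8, 39.3 and 54.9 CPM in controls 5, 6 and 7, against 22.5, 43.1 and 22.8 CPM in treated libraries 1, 2 and 5. Treated library 2 lay between controls 6 and 7, while the other two treated libraries lay just below control 5. The group means were 40.0 ± 14.5 and 29.5 ± 11.8 CPM (SD, n = 3 each), with a log2 fold change of -0.44 (SE 0.39, edgeR adjusted p = 0.543).

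Hist1h1d, another somatic H1 subtype gene (ENSMUSG00000052565, chromosome 13, 23553262 to 23560686), had the opposite profile among the controls. It measured 4.87 CPM in control 5 but 1.02 and 1.18 CPM in the other controls, and treated libraries 1, 2 and 5 gave 3.56, 2.50 and 3.12 CPM. All 3 treated values therefore lay between control 5 and the other controls. The log2 fold change was 0.34 (SE 0.65, edgeR adjusted p = 0.768). Hist1h1e, the third tested H1 gene, ranged from 0.424 to 1.29 CPM in controls and from 0.346 to 1.18 CPM in treated libraries, and its exons overlap those of Hist1h2be on the same strand, so reads of this pair may be shared.

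The H1 genes not tested had few counts. Hist1h1b, a further somatic linker histone gene, had 18, 1 and 1 counts in controls 5, 6 and 7 and 7, 4 and 13 in the treated libraries. As in Hist1h1d, control 5 stood above the other controls. Hist1h1t, the testis linker histone, had 1 count, in control 6, and the testis H2A and H2B genes of the same list were not analysed here.

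The H2A genes showed opposing profiles within the family. Hist1h2al (ENSMUSG00000091383, chromosome 13, 51202727 to 51203065), annotated in GENCODE M21 as a processed pseudogene, measured 0.702, 3.56 and 4.63 CPM in controls 5, 6 and 7, against 1.04, 1.08 and 0.416 CPM in treated libraries. Controls 6 and 7 were the high libraries and the other 4 were low. Its log2 fold change was -1.78 (SE 0.77, edgeR adjusted p = 0.300), and 67.6% of its 50-base windows also occur in other genes' transcripts, so its counts may be partly those of other H2A genes.

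Hist1h2ao (ENSMUSG00000094248, chromosome 13, 21810465 to 21810944), the tested member annotated to stop at the stem-loop, ran the other way. It had 26, 3 and 2 counts in controls 5, 6 and 7 and 29, 21 and 35 in the treated libraries, or 1.14, 0.254 and 0.215 against 1.43, 1.03 and 1.82 CPM. Control 5 lay among the treated libraries, and controls 6 and 7 were at or below 3 counts. The log2 fold change was 1.28 (SE 0.68, edgeR adjusted p = 0.362), the largest among the 13, and 93.5% of its windows are shared with other genes, so the assignment to this copy is uncertain.

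Hist3h2a, an H2A gene of the chromosome 11 cluster, was steadier at 3.25, 1.53 and 2.69 CPM in controls, against 2.92, 3.58 and 3.12 CPM in treated libraries (log2 fold change 0.36, SE 0.37, edgeR adjusted p = 0.592); its exons overlap Trim17 on the same strand. Hist1h2ac, with too few counts to test, had 19, 6 and 4 counts in controls and 12, 9 and 9 in treated libraries. Summed over 16 genes, H2A was 7.15, 6.19 and 8.29 CPM in controls, against 6.62, 7.35 and 7.49 CPM in treated libraries. Without Hist1h2al, the 15 others summed to 6.45, 2.63 and 3.66 CPM in controls, against 5.59, 6.27 and 7.08 CPM, so that control 5 lay within the treated range and controls 6 and 7 below it.

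The H2B genes held the widest difference. Hist1h2bc (ENSMUSG00000018102, chromosome 13, 23684199 to 23692908), whose annotated transcript has a second exon and no stem-loop letters, measured 10.5 CPM in control 5, 58.2 in control 6 and 71.3 in control 7. The treated libraries measured 11.4, 10.7 and 8.43 CPM. Controls 6 and 7 were each more than 5 times any other library, and control 5 lay inside the treated range. Of the windows of Hist1h2bc, 30.6% also occur in transcripts of other genes, 220 in all, so its counts may be partly those of other genes. Means were 46.7 ± 32.0 CPM in controls, against 10.2 ± 1.56 CPM in treated tumors (SD, n = 3 each), with a log2 fold change of -2.19 (SE 0.68) that missed the threshold (edgeR adjusted p = 0.247; DESeq2 adjusted p = 0.0281). The hepatocyte markers were highest in the same pair of libraries, and their part in the difference was not tested. A fit with the hepatocyte score, their mean log2 CPM, as a covariate gave a log2 fold change of -0.65 (edgeR adjusted p = 0.626). That score was 12.6 and 13.23 in controls 6 and 7, and from 4.72 (control 5) to 7.34 (treated library 1) elsewhere. It thus nearly marks those controls, and the fit cannot separate hepatocyte content from the choice of controls.

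Other H2B genes did not share that profile. Hist2h2be, with no stem-loop letters and no 50-base window in common with another gene, measured 3.29, 5.43 and 5.27 CPM in controls, against 2.47, 5.73 and 4.01 CPM in treated libraries (log2 fold change -0.19, SE 0.42, edgeR adjusted p = 0.797). Hist1h2be measured 1.58, 0.933 and 0.753 against 0.890, 1.13 and 0.520 CPM, and Hist1h2bh 0.614, 0.254 and 0.215 against 0.494, 0.686 and 0.780 CPM. Without Hist1h2bc, the 16 remaining H2B genes summed to 7.80 ± 1.16 CPM in controls, against 7.19 ± 1.79 CPM in treated libraries (SD, n = 3 each).

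The H3 genes were the sparsest family, with 152 counts in all. Hist2h3c2 held 52% of them, with 18, 7 and 3 counts in controls and 15, 23 and 13 in treated libraries (log2 fold change 0.52, SE 0.46, edgeR adjusted p = 0.537). Hist1h3d had 10, 3 and 2 counts in controls and 3, 7 and 10 in treated libraries, while Hist1h3f and Hist1h3g had at most 4 counts in any library. The family sum was 1.67, 1.02 and 0.646 CPM in controls, against 1.29, 1.86 and 1.66 CPM in treated libraries, so again control 5 and the treated libraries were the high ones.

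Among the H4 genes, Hist1h4i (ENSMUSG00000060639, chromosome 13, 22040636 to 22041362) resembled Hist1h2bc in its profile. It had 17, 43 and 31 counts in controls 5, 6 and 7 and 11, 25 and 15 in treated libraries, or 0.746, 3.65 and 3.34 against 0.544, 1.22 and 0.780 CPM. Control 5 fell inside the treated range (log2 fold change -1.57, SE 0.68, edgeR adjusted p = 0.302). Of the windows of Hist1h4i, 28.9% also occur in transcripts of other genes, 11 in all, so its counts may be partly those of other genes. Hist2h4 measured 1.27, 0.594 and 0.430 CPM against 0.741, 0.784 and 0.884 CPM, with a log2 fold change of 0.01 (SE 0.51), and Hist1h4j and Hist1h4n had at most 12 counts in any library. Summed over all 13 H4 genes, the level was 3.95, 5.26 and 4.30 CPM in controls and 2.42, 3.72 and 3.12 CPM in treated libraries. The groups did not overlap on this scale, but they did in CPM of the unscaled totals, at 4.89, 3.97 and 2.44 in controls, against 2.99, 4.51 and 3.86 in treated libraries. The H4 genes other than Hist1h4i summed to 1.93 ± 1.15 CPM in controls, against 2.24 ± 0.322 CPM in treated tumors (SD, n = 3 each).

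The family shares of histone counts, which need no scaling between libraries, set controls 6 and 7 apart from the rest in 4 of the 5 families. H2B took 54.8% and 52.7% of histone counts in controls 6 and 7, but 30% in control 5 and 24.9% to 32% in the treated libraries. H1 took 34.7% and 38.5% in controls 6 and 7, 50.6% in control 5 and 49.1% to 59% in treated libraries. H2A took 5.21% and 5.55% in controls 6 and 7, against 10.9% in control 5 and 9.17% to 13.8% in treated libraries, and H3 0.857% and 0.432% against 2.54% and 2.32% to 3.07%. H4 took 4.43% and 2.88% in controls 6 and 7, 6.02% in control 5 and 4.41% to 5.75% in treated libraries, so control 6 lay within the treated range. The shares are not independent of each other, and a single gene weighs on them. Hist1h2bc had 686 of 1401 and 663 of 1388 histone counts in controls 6 and 7, and 240 of 1495 in control 5. In treated libraries 1, 2 and 5 it had 231 of 1111, 218 of 1635 and 162 of 1044. The other 16 H2B genes had 208, 82 and 68 counts in controls 5, 6 and 7, against 125, 189 and 118 in treated libraries.

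The sum over all 62 members was 65.6, 119 and 149 CPM in controls 5, 6 and 7, against 54.9, 80.1 and 54.3 CPM in treated libraries, a log2 ratio of group means of -0.82. Against controls 6 and 7 the log2 ratio was -1.09, and against control 5 it was -0.06. Without Hist1h1c and Hist1h2bc, the sum was 29.2, 21.3 and 23.1 CPM in controls, against 21.0, 26.3 and 23.0 CPM in treated libraries, a log2 ratio of -0.07. Hence the difference in the total lay in those leading genes. It also depended on the scaling: in CPM of the unscaled totals, the sum was 81.2, 89.8 and 84.8 in controls (95% Wilson intervals 77.2 to 85.5, 85.2 to 94.6 and 80.4 to 89.3) and 67.9, 97.0 and 67.2 in treated libraries (64.0 to 72.0, 92.4 to 102 and 63.3 to 71.4), values that interleaved. The intervals cover counting error only.

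Divided by annotated end, the sums went in opposite directions in controls 6 and 7. The 19 genes that stop at the stem-loop summed to 80, 7 and 9 counts in controls 5, 6 and 7 and 59, 60 and 78 counts in treated libraries. On the scaled level this was 3.51, 0.594 and 0.969 CPM against 2.92, 2.94 and 4.06 CPM. Control 5 was thus with the treated libraries, with a log2 ratio of treated to control of 2.08 against controls 6 and 7 and -0.09 against control 5. The 6 genes with another end ran the other way, with 16.4, 63.7 and 76.8 CPM in controls, against 15.2, 16.9 and 12.7 CPM in treated libraries. This difference lay in Hist1h2bc, at 10.5, 58.2 and 71.3 CPM in controls, against 11.4, 10.7 and 8.43 CPM in treated libraries. The rest of this class was not highest in controls 6 and 7. The 21 extended genes summed to 43.1, 50.5 and 66.8 CPM in controls, against 34.6, 58.0 and 35.5 CPM in treated libraries. Hist1h1c held 3338 of their 4766 counts, at 25.8, 39.3 and 54.9 CPM in controls, against 22.5, 43.1 and 22.8 CPM in treated libraries. The rest of this class was lowest in controls 6 and 7, though by little on the scaled level. In CPM of the unscaled totals the extended genes were at 53.4, 38.2 and 37.9 in controls, against 42.8, 70.3 and 43.9 in treated libraries, with controls 6 and 7 the lowest. The 16 genes with neither the letters nor another marked end, led by Hist1h2al, summed to 2.63, 3.99 and 4.73 CPM in controls, against 2.17, 2.25 and 2.03 CPM in treated libraries, all below the controls. In CPM of the unscaled totals they were at 3.26, 3.01 and 2.69 against 2.69, 2.73 and 2.51, which overlap. Of their 60, 47 and 44 counts in controls 5, 6 and 7, Hist1h2al held 16, 42 and 43. Of their 44, 46 and 39 counts in treated libraries, it held 21, 22 and 8. The rest of this class was thus lowest in controls 6 and 7. The sums are descriptions, with no test.

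**Figure D3:**
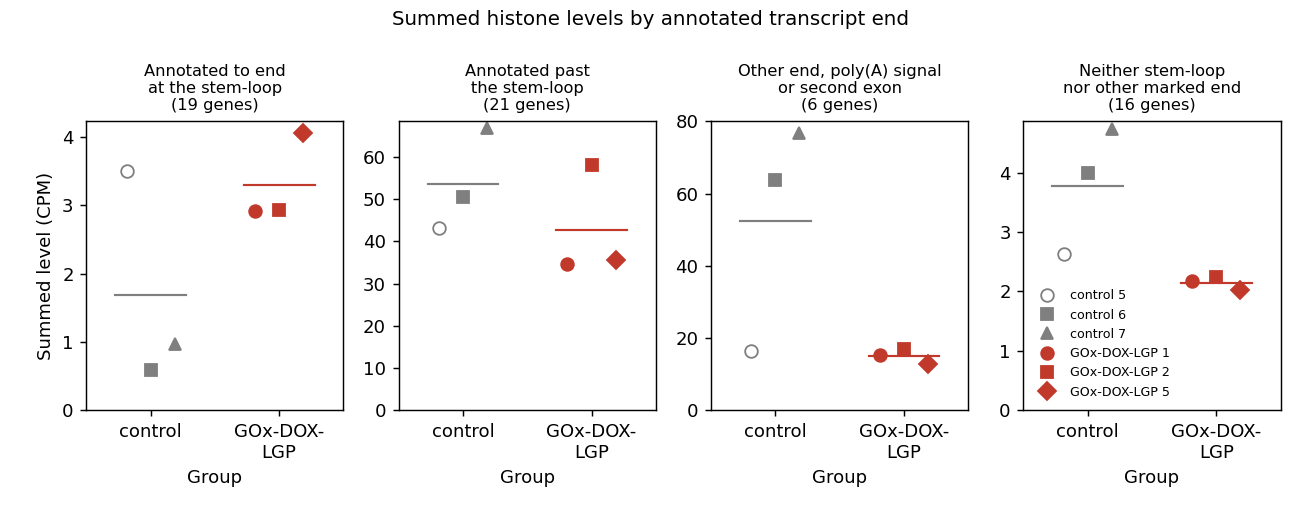
Summed level (CPM, linear axes from 0 with different scales) of histone genes by annotated transcript end, per library, with lines at the group means. Genes that stop at the stem-loop are at 0.594 and 0.969 CPM in controls 6 and 7 and at 2.92 CPM or more in the other 4 libraries, and genes with another end are at 63.7 and 76.8 CPM in controls 6 and 7 and at 16.9 CPM or less elsewhere. Of the latter, Hist1h2bc alone is at 58.2 and 71.3 CPM in controls 6 and 7.

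The fits were therefore repeated on the libraries in question. Without control 5, 5 of 13 members were called beside a background of 47.7% of genes. Hist1h1d and Hist1h2ao were higher in treated tumors (log2 fold changes 1.50 and 2.58, edgeR adjusted p = 0.0195 and 0.0106), and Hist1h2bc, Hist1h2al and Hist1h4i were lower (-2.64, -2.23 and -2.00, edgeR adjusted p = 9.7e-05, 0.00865 and 0.00996). Against control 5 alone, with controls 6 and 7 left out, none of the 21 members then tested was called by edgeR at an adjusted or at an unadjusted p under 0.05, where the lone control is assumed to vary like the treated libraries, and the same 5 genes had log2 fold changes of -0.65, 0.33, -0.03, 0.28 and 0.20. With limma voom quality weights, which give less weight to libraries that vary more, 8 of 13 were called (3 higher, 5 lower) beside a background of 60.2%. These shares of members were near or below the shares of all genes under the same fits.

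**Figure D4:**
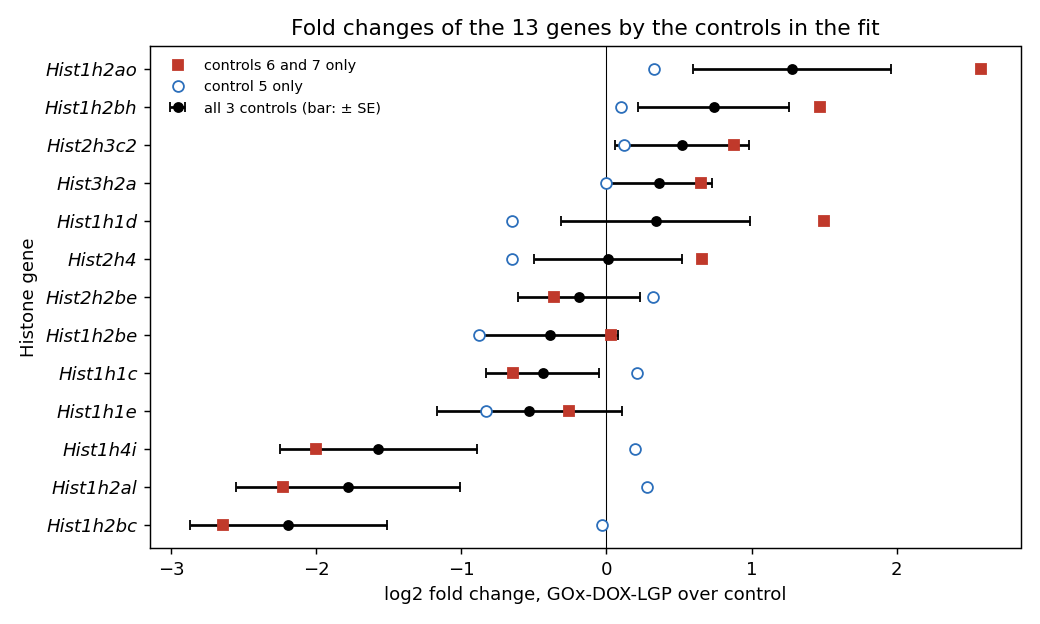
Log2 fold change of treated over control tumors for the 13 tested histone genes, with all 3 controls (black, bars are the standard error), controls 6 and 7 (red squares) or control 5 (open circles). Hist1h2bc moves from -2.64 against controls 6 and 7 to -0.03 against control 5, and Hist1h2ao from 2.58 to 0.33.

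The genes that make and trim histone mRNAs did not pass the test either. All 17 listed genes for histone mRNA transcription and 3′ processing were tested. In treated tumors 10 had a higher and 7 a lower mean. None was called by edgeR or DESeq2, and 0 had an unadjusted p under 0.05 in edgeR, beside 17.5% of all tested genes. Slbp was at 43.7, 32.7 and 26.6 CPM in controls, against 41.6, 37.0 and 52.9 CPM in treated libraries (log2 fold change 0.35, SE 0.26, edgeR adjusted p = 0.484). Npat, a coactivator of histone genes, was at 46.1, 15.9 and 19.8 CPM in controls, against 36.5, 34.6 and 25.9 CPM in treated libraries. Groups did not overlap in 1 of the 17 genes, beside 17.2% of all tested genes. This was Lsm11, a protein of the U7 RNP, at 9.61, 8.06 and 5.81 CPM against 13.4, 10.9 and 12.9 CPM (log2 fold change 0.66, SE 0.28, edgeR adjusted p = 0.292). Its partner Lsm10 was at 7.59, 17.5 and 11.1 CPM in controls, against 7.91, 8.23 and 8.74 CPM in treated libraries. The list median log2 fold change was 0.14, and without control 5 it was 0.41 with 6 of 17 called, all higher, beside the 47.7% of all genes in that fit. Those called included Npat, Lsm11, Casp8ap2, a factor of the histone locus body, and Eri1, an exonuclease that trims the histone mRNA end.

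Among histone chaperones, control 5 again lay with the treated libraries. Of 22 chaperones tested, 17 had a higher and 5 a lower mean in treated tumors (median 0.35), none was called by edgeR or DESeq2 and 1 had an unadjusted p under 0.05. Asf1b, which hands H3 and H4 to the assembly factors, was at 17.3, 5.77 and 1.08 CPM in controls, against 20.4, 13.9 and 22.6 CPM in treated libraries (log2 fold change 1.22, SE 0.86, edgeR adjusted p = 0.461). Nap1l1, a chaperone of H2A and H2B, had a log2 fold change of 0.88 (edgeR adjusted p = 0.399), and Tonsl, a reader of new H4, 0.82 (edgeR adjusted p = 0.454). Without control 5, 13 of 22 were called, 12 of them higher, beside the same background of 47.7%, and Asf1b had a log2 fold change of 2.46, against 0.15 with control 5 as the only control.

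Of 28 S phase genes, 27 had a higher and 1 a lower mean in treated tumors, with a median log2 fold change of 0.76. None was called by edgeR or DESeq2, and 1 had an unadjusted p under 0.05 in edgeR. Their summed level was 1340, 594 and 358 CPM in controls, against 1310, 1040 and 1340 CPM in treated libraries, so that control 5 equalled the treated maximum. Rrm2, a subunit of ribonucleotide reductase, was at 143, 33.2 and 6.56 CPM against 155, 99.8 and 138 CPM (log2 fold change 1.10, edgeR adjusted p = 0.539). Orc1 and Cdc6, which load the replicative helicase at origins, had log2 fold changes of 1.18 and 1.11 (edgeR adjusted p = 0.494 and 0.540). Without control 5, 22 of the 28 were called, 21 of them higher, beside a background of 47.7% (3601 genes higher and 4144 lower). In that fit the log2 fold changes of Rrm2, Orc1 and Cdc6 were 2.74, 2.84 and 2.61, and with control 5 as the only control they were -0.11, -0.01 and -0.05. The genes that stop at the stem-loop and the S phase genes were thus low in the same libraries, controls 6 and 7, where the hepatocyte markers were high, and the link between them was not tested.

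Of the 11 genes listed as replication-independent histones, 7 had a higher and 4 a lower mean (median 0.14). None was called by edgeR or DESeq2, and 0 had an unadjusted p under 0.05 in edgeR, beside 17.5% of all tested genes. The largest log2 fold changes were in Cenpa, the centromeric H3 (0.86, edgeR adjusted p = 0.413), H2afx, the variant phosphorylated at DNA breaks (0.82, edgeR adjusted p = 0.357) and H2afz, a variant of promoters (0.53, edgeR adjusted p = 0.418). Without control 5, 4 of 11 were called, all higher, beside 47.7% of all genes. H1f0, the replacement linker histone, stayed within 257 to 401 CPM over all 6 libraries.

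Markers of other cells moved with the libraries as well, and their part in the histone values was not tested. T cell markers summed to 30.9 to 87.7 CPM in controls, against 121 to 183 CPM in treated libraries, with 7 of 7 higher in mean. Macrophage markers were at 328 to 639 against 623 to 1330 CPM (6 of 6 higher), neutrophil markers at 7.64 to 20.4 against 14.4 to 52.7 CPM (3 of 3 tested) and fibroblast markers at 954 to 4030 against 1530 to 4310 CPM (2 of 3). The erythroid sum was 13.2 CPM in control 5, 406 and 425 CPM in the other controls, against 13.8 to 42.0 CPM in treated libraries. Endothelial markers were at 94.9 to 201 against 68.8 to 82.5 CPM (3 of 3 lower), B cell markers at 2.06 to 7.04 against 1.67 to 2.72 CPM (2 of 2 tested lower), and the liver cancer markers at 6.01 to 15.4 against 3.04 to 5.83 CPM (2 of 2 lower). The 11 hepatocyte markers were all lower in mean. None of the markers was called by edgeR at an adjusted p under 0.05. An unadjusted p under 0.05 was found in 11 hepatocyte, 5 T cell, 3 erythroid (of 4 tested), 2 macrophage, 2 endothelial and 2 liver cancer markers. The background at that threshold was 17.5% of all tested genes. DESeq2 called 11 hepatocyte, 5 T cell, 2 erythroid, 1 macrophage (Cd68) and 1 endothelial (Kdr) marker, the last pair named after their values were seen. The background of DESeq2 was 10.5% of genes.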

How the data were processed

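Poly(A)-captured mRNA libraries of 6 tumors were compared, 3 per group, with groups and numbers taken from the labels. The authors deposited raw read counts per gene, and a normalized signal that equals those counts divided by a size factor per library; symbols came from the latter file and all tests used the counts. The submitters' processing notes list Trimmomatic 0.38, HISAT2 2.1.0 and featureCounts 2.0.0, whereas the paper's methods name TopHat and HTSeq. Build, annotation and strandedness of the counting are not given in the sources used here, and a count assigned to near-identical copies or overlapping genes is uncertain.

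Counts were tested in edgeR 4.0.16 (TMM, filterByExpr defaults, quasi-likelihood test, Benjamini-Hochberg adjustment over all genes kept, threshold 0.05), with DESeq2 1.42.0 and limma 3.58.1 as alternatives. Scripts were tested on simulated data. Levels are CPM on library totals of the genes kept, multiplied by TMM factors from 0.5695 in control 7 to 1.241 in control 5. Before the filter and scaling, the totals were 15529940 to 18401178 counts. Members, gene lists and transcript-end classes were chosen with earlier results of these data known. Members named were, per family, the 4 with the highest mean level, the 5 largest and 5 most negative fold changes among those tested, and the testis histones; in companion lists, any processing gene and otherwise the 3 largest changes; Alb, Ttr and Apoa1 were named as markers. Transcripts were from GENCODE M21 and promoters from RefSeq (GRCm38.p6).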

Additional observations from a re-analysis of the deposited data

How the results depend on the processing

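The comparisons were repeated under 15 other settings. No paired analysis was possible because the groups share only the replicate number 5. The count of histone genes called was 5 without control 5 (range over the 6 fits that each leave out a library, 0 to 5), 8 with voom weights and 1 with DESeq2, and 0 under all other settings. Companion genes called numbered 45 without control 5 (range 0 to 45) and 58 with voom weights. The median log2 fold change of the histone genes was 0.37 with library totals alone, 0.00 with upper quartile scaling, 0.31 with no filter on low counts, -0.40 with at least 1 CPM in 3 libraries, -0.32 with controls 6 and 7 left out, 0.30 with DESeq2 and -0.33 to 0.15 when each library was left out. The scaling by library totals moved the median of all genes from 0.02 to 0.51, with the histone genes below it, whereas they lay above the median of all genes with no filter (0.19), with DESeq2 (0.15) and without GOx-DOX-LGP 1 (0.15 against 0.03). The summed level had a log2 ratio of -0.14 with library totals and -0.04 with controls 6 and 7 left out. The members without overlap numbered 4 of 62 with no filter and with DESeq2 (11.9% and 11.7% of all genes), 8 of 21 with controls 6 and 7 left out (54.2% of all genes) and 0 to 9 when each library was left out, 9 of 13 being without control 5 (72% of all genes). The voom and covariate fits give no value for the sum or the overlap.

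Of the alternative values for the 31 genes with a test, 35 reversed direction, 375 kept direction and call and 51 became significant, 26 of these with voom weights and 21 without control 5. With controls 6 and 7 left out, log2 fold changes were 0.21 for Hist1h1c, -0.65 for Hist1h1d and Hist2h4, 0.28 for Hist1h2al, 0.20 for Hist1h4i, 0.32 for Hist2h2be, 0.00 for Hist3h2a, -0.27 for Casp8ap2, -0.05 for Cdc6, -0.08 for Eri1, 0.14 for Lsm10, -0.50 for Npat, -0.01 for Orc1, -0.11 for Rrm2, 1.82 for Alb, 1.88 for Apoa1 and 1.84 for Ttr. With the hepatocyte covariate they were -0.12 for Hist1h1d, 0.09 for Hist2h2be, -0.37 for Hist2h4, -0.07 for Casp8ap2, -0.16 for Npat and 0.06 for Apoa1. With library totals they were 0.22 for Hist1h1c, 0.00 for Hist1h2be, 0.42 for Hist2h2be and 0.08 for Lsm10, and with upper quartile scaling 0.00 for Hist2h2be. Leaving out each library gave -0.63 to 0.03 for Hist1h2be, -0.50 to 0.09 for Hist2h2be, -0.25 to 0.66 for Hist2h4, -0.01 to 1.50 for Hist1h1d and -0.03 to 0.89 for Npat. Apart from the control choice, the cause was not tested. Depth limits 49 members that had too few counts to test.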
